A study of Mus musculus with 6 samples.

Results

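Solute carriers are the membrane proteins that move sugars, amino acids, ions, metals and other small solutes into and out of cells and organelles. They were examined in messenger RNA of cells sorted from the retinas of 7-day-old mouse pups. A gene was included if its symbol had the form Slc, a family number, the letter a and a member number, and if its counts summed to at least 60 over the 6 libraries. The mitochondrial Slc25 family and 6 transporters of the blood-retina barrier (Slc2a1, Slc7a5, Slc3a2, Slc16a1, Slc7a1 and Slc38a5) were left out. Of 267 symbols of that form, 210 from 48 families reached the minimum, among 19124 symbols in the table, and 57 did not. The genes were thus chosen by their count sum over both groups, with earlier results of these data known. Just inside the minimum lay Slc8a2 with 60 counts, Slc22a14 with 66, Slc22a19 with 68 and Slc6a16 with 72, and just outside it lay Slc5a9 with 56, Slc39a2 with 55 and Slc9a2 and Slc15a5 with 53 each.

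The libraries came from 3 KO pups, labelled Pdgf{beta}CreERT2pos Rnf20p/p, and 3 Ctrl pups, labelled Pdgf{beta}CreERT2neg Rnf20p/p, each a different C57BL/6 animal. Both groups carried the Rnf20p/p alleles and were given 75 µg of Z-4-HO-Tamoxifen daily from P1 to P4, so the groups differed in the recombinase, which tamoxifen switches on in cells where the Pdgfb promoter is active, mainly endothelium. Ctrl pups lacked that recombinase, so an effect of the recombinase itself and one of losing Rnf20 cannot be told apart. The sort took cells with CD31 on their surface, which endothelium carries and platelets and some leukocytes share. Rnf20 encodes a ubiquitin ligase of histone H2B, and the series title places it in vessel sprouting.

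Carriers divide into families by sequence, and a family largely shares its substrates. Many are coupled to the sodium gradient that the sodium pump maintains, and some need a partner, such as the heavy chain Slc3a2 or the chaperone basigin, to reach the surface. In the retina, endothelium uses them to pass nutrients across its barrier, photoreceptors and neurons use them to load and clear transmitters, and glia use them to take up glutamate and GABA and to buffer ions.

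The KO libraries held 25016982, 27726249 and 30692948 counts, and the Ctrl libraries held 28969300, 22677108 and 14581701, with 1 entry per gene. The 210 carriers took between 0.838% and 0.958% of each library. Rnf20 was 39.1, 30.99 and 31.7 CPM (counts scaled to the library total by edgeR's TMM method) in KO pups and 47.9, 57.1 and 56.8 CPM in Ctrl pups (log2 fold change −0.67, SE 0.235, edgeR adjusted p = 0.101, exact permutation p = 0.1, the smallest that 3 against 3 allows). The 15 endothelial markers averaged 8.70, 8.88 and 8.49 log2 CPM in KO libraries and 6.998, 7.57 and 7.59 in Ctrl libraries, with none at 0 in any library. The 14 photoreceptor markers averaged 7.24, 8.26 and 9.51 in KO libraries and 9.94, 9.34 and 9.55 in Ctrl libraries, and none of them was at 0 in any library either. Of the 14 photoreceptor markers, edgeR called 0 higher and 2 lower in KO pups, where 4.44% of all genes fell. DESeq2 called 5, limma-voom 3, and 5 had an unadjusted p below 0.05. Among the other lists, ganglion cells had 2 of 7 tested markers higher in KO pups and mural cells 1 of 12. Red cells had 4 of 6 and platelets 1 of 3, where 5.85% of all genes rose. Pigment epithelium had 0 of 4 changed by edgeR (DESeq2 called 1, limma-voom 0, and 1 had an unadjusted p below 0.05). Each level given for a gene is therefore of the mixture, in which fewer cells of a type and less RNA per cell cannot be told apart.

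KO libraries differed from Ctrl libraries in 17 of the 208 carriers that passed the low-count filter, 8 higher and 9 lower (edgeR's quasi-likelihood test, adjusted p under 0.05 over 16217 genes). This is 8.17% of the carriers, where 10.3% of all genes tested were called. Slc6a4 and Slc8a2 were not tested. By direction, 3.85% of the carriers rose, against 5.85% of all genes, and 4.33% fell, against 4.44%. Among those called, Slc16a11 rose most and Slc4a7 fell most. The middle log2 fold change was 0.23 over the carriers and 0.03 over all genes. The carriers' estimates had quartiles at −0.42 and 0.78. Every KO library lay above every Ctrl library for 41 carriers and below for 32, together 35.1%, where the share over all genes was 37.9%.

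The calls depended on which library was left out. Without KO 2, Ctrl 1, Ctrl 2 or Ctrl 3, 0 carriers and 0 genes of the table passed edgeR's test, while 33, 38, 33 and 37 carriers had an unadjusted p below 0.05. With all libraries that number was 54, and DESeq2 called 41 carriers, against 22.7% of all genes, and limma-voom 18, against 11.8%. Without KO 1, 56 carriers passed (34 higher and 22 lower), which included all 17, where 29.7% of all genes passed. Without KO 3, 7 passed (3 higher and 4 lower), each of them among the 17, where 5.23% of all genes passed. In each of these 6 fits the 17 kept the sign of their estimate, which their selection in these same libraries largely fixed in advance. The middle log2 fold change of the carriers was 0.03 without KO 2, the library in which 32.2% of carriers had their highest level, against 19.5% of all genes.

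**Figure D1:**
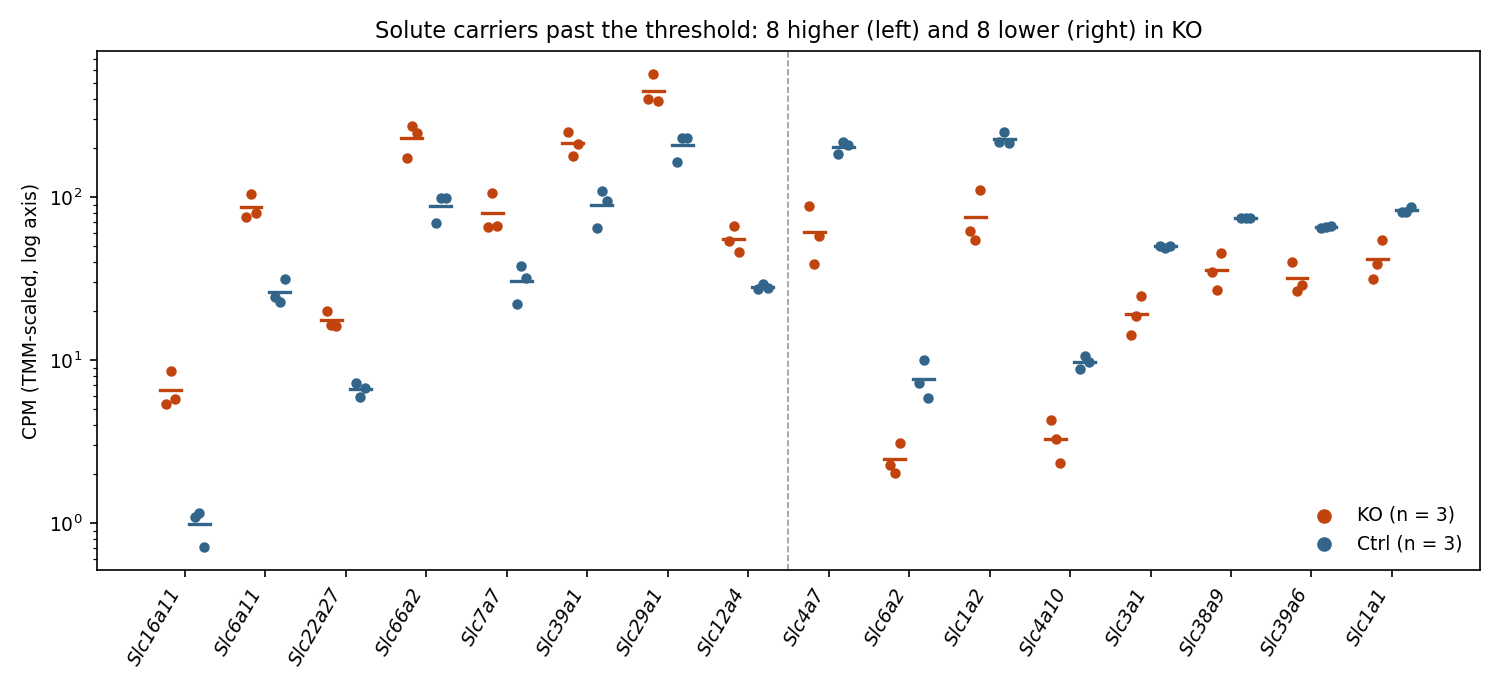
Level of 16 of the carriers past the threshold, 8 higher and 8 lower, in each library, in TMM-scaled CPM on a log axis, with KO left of Ctrl. Points are single pups and bars are means of 3. The groups do not overlap in any of the 16, where the share over all genes was 37.9%. Selection by the difference between groups largely fixed this in advance.

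The families that carry amino acids and transmitters (families 1, 3, 6, 7, 36, 38 and 43) held 7 of the 17 calls, from 40 tested, or 17.5%, where 10.3% of all genes were called. Of these 2 rose and 5 fell, 5% and 12.5% of the 40, against 5.85% and 4.44% of all genes, and the middle log2 fold change was −0.09. An unadjusted p below 0.05 was found for 22.5% of the 40, less than the 30.5% of all genes. DESeq2 called 8 of the 40, where it called 22.7% of all genes, and limma-voom called 7, where it called 11.8%. The rises were in Slc6a11 and Slc7a7. The falls included both glutamate carriers called, Slc1a2 and Slc1a1.

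Slc6a11, a GABA transporter best known from astrocytes (chromosome 6, 114131241 to 114249886, GRCm38.p6), was 76.0, 104 and 80.1 CPM in KO pups and 24.4, 22.7 and 31.3 CPM in Ctrl pups. Its mean was 86.8 ± 15.4 CPM in KO pups and 26.1 ± 4.54 CPM in Ctrl pups (SD, n = 3 each), 3.32-fold higher in KO pups (log2 fold change 1.73, SE 0.258, edgeR adjusted p = 0.0211). The KO libraries all lay well above the Ctrl libraries, which the selection of Slc6a11 by this difference largely fixed in advance. Slc7a7, the light chain that with Slc3a2 exports cationic amino acids and is abundant in macrophages, was 65.5, 106 and 66.4 CPM in KO pups and 22.1, 37.6 and 31.8 CPM in Ctrl pups (log2 fold change 1.38, SE 0.313, edgeR adjusted p = 0.0346). It overlaps Oxa1l, so its counts are uncertain.

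Slc1a2, the glutamate transporter GLT-1 of brain astrocytes, which mouse cones and bipolar cells also make (chromosome 2, 102658239 to 102790784), was 61.8, 54.3 and 111 CPM in KO pups and 217, 250 and 215 CPM in Ctrl pups. The KO pups had a mean of 75.7 ± 30.8 CPM and the Ctrl pups one of 227 ± 19.8 CPM (SD, n = 3 each; log2 fold change −1.59, SE 0.317, edgeR adjusted p = 0.0264). Slc1a1, the neuronal glutamate and cysteine carrier (chromosome 19, 28835135 to 28913960), was 31.6, 38.7 and 54.2 CPM in KO pups and 81.4, 81.4 and 86.7 CPM in Ctrl pups (log2 fold change −1.003, SE 0.263, edgeR adjusted p = 0.0496). The Ctrl libraries of Slc1a1 lay close together and the KO libraries were spread below them. Slc1a2 overlaps the predicted gene Gm13872, so its counts are uncertain.

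Slc3a1, the heavy chain of the cystine carrier (chromosome 17, 85028347 to 85064241), was 14.3, 18.6 and 24.6 CPM in KO pups and 50.4, 48.6 and 50.4 CPM in Ctrl pups (log2 fold change −1.37, SE 0.278, edgeR adjusted p = 0.0269). It overlaps Prepl, so its counts are uncertain. Slc38a9, the lysosomal carrier through which arginine is sensed by mTORC1, was 34.5, 27.003 and 45.3 CPM in KO pups and 74.6, 74.6 and 74.9 CPM in Ctrl pups (log2 fold change −1.07, SE 0.259, edgeR adjusted p = 0.0404). Slc6a2, the noradrenaline transporter, was 2.27, 2.03 and 3.12 CPM in KO pups and 7.24, 9.99 and 5.87 CPM in Ctrl pups (log2 fold change −1.64, SE 0.402, edgeR adjusted p = 0.0421). No KO library reached the lowest Ctrl library in these 3 genes, which their selection by this difference largely fixed in advance. The abundant taurine carrier Slc6a6, found in photoreceptors, glia and endothelium, was 409, 480 and 456 CPM in KO pups and 366, 321 and 402 CPM in Ctrl pups and did not pass (log2 fold change 0.31, edgeR adjusted p = 0.391).

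The sequence before the start of these genes is shown for 2 carriers that rose and 2 that fell, as RefSeq gives it for GRCm38.p6. It runs on the plus strand from 250 bases before the promoter's start to 50 after it. That start is the gene's annotated start, except in Slc39a1, where it lies 2 bases away. They were chosen after their values were seen, from the 7 called carriers for which the table of promoters holds a start within 100 bases of the gene's annotated start. Capitals mark the GC box, the letters GGGCGG or, on the other strand, CCGCCC. Slc6a11 (chr6:114130991-114131290) and Slc39a1 (chr3:90247942-90248241) rose, and Slc1a1 (chr19:28834885-28835184) and Slc3a1 (chr17:85028097-85028396) fell.
Slc6a11: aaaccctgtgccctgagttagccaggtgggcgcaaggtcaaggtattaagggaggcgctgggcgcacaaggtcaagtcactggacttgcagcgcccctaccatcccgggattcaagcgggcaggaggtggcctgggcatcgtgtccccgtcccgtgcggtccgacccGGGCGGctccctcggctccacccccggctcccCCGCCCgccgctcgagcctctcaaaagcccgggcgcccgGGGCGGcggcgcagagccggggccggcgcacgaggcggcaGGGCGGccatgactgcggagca
Slc39a1: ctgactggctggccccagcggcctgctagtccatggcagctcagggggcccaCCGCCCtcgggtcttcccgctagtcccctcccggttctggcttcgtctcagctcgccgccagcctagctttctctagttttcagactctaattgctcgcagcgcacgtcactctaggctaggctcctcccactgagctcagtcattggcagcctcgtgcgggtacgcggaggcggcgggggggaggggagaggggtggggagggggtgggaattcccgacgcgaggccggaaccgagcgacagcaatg
Slc1a1: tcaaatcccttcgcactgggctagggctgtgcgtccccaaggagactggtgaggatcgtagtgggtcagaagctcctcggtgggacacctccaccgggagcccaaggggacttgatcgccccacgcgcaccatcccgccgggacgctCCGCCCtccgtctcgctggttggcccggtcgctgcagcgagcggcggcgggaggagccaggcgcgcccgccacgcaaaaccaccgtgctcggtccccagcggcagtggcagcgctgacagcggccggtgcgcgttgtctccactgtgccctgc
Slc3a1: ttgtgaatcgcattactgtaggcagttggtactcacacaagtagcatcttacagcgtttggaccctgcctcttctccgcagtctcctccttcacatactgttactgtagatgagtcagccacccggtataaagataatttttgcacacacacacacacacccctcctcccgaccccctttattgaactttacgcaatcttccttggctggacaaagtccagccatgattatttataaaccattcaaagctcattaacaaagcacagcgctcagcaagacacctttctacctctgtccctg
These windows hold 32 CpG dinucleotides in Slc6a11, 23 in Slc39a1, 32 in Slc1a1 and 7 in Slc3a1, and 4, 1, 1 and 0 GC boxes. Over all called carriers with such a window, the 4 that rose had a middle CpG count of 21.5 and a GC box in 4, and the 3 that fell had one of 7 and a GC box in 1. Of the 91 windows of carriers with a start that near, 69.2% hold a GC box, as do 61.1% of 9443 windows of all genes tested, and the middle CpG count is 17 in the windows of carriers and 19 in all 9443.

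Carriers of bicarbonate, chloride and other anions (families 4, 12 and 26) held 4 of the 17 calls, from 23 tested, or 17.4%, against 10.3% of all genes. There was 1 rise and there were 3 falls (4.35% and 13% of the 23, against 5.85% and 4.44% of all genes), with a middle log2 fold change of 0.08. An unadjusted p below 0.05 was found for 30.4% of the 23, against 30.5% of all genes. DESeq2 called 7 of the 23 and limma-voom 4, where they called 22.7% and 11.8% of all genes. Slc12a4, or KCC1, a potassium-chloride cotransporter, through which cells shed chloride and shrink after swelling (chromosome 8, 105943590 to 105966149), was 53.9, 66.9 and 46.2 CPM in KO pups and 27.4, 29.4 and 27.8 CPM in Ctrl pups (log2 fold change 0.98, SE 0.245, edgeR adjusted p = 0.0440). Slc12a5, or KCC2, the neuronal member, was 11.6, 27.3 and 37.98 CPM in KO pups and 38.8, 33.9 and 29.7 CPM in Ctrl pups, with overlapping groups (log2 fold change −0.41, edgeR adjusted p = 0.535). Without KO 1 its log2 fold change was 0.00037 (edgeR adjusted p = 0.999).

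The sodium-coupled bicarbonate carriers, which bring base into cells, gave 2 of the 3 falls. Slc4a7 (chromosome 14, 14703011 to 14799944) was 88.0, 39.1 and 57.4 CPM in KO pups and 183, 218 and 209 CPM in Ctrl pups, 3.31-fold lower in KO pups (log2 fold change −1.73, SE 0.326, edgeR adjusted p = 0.0239). Slc4a10, a neuronal member, was 4.31, 3.27 and 2.33 CPM in KO pups and 8.85, 10.6 and 9.78 CPM in Ctrl pups (log2 fold change −1.56, SE 0.372, edgeR adjusted p = 0.0393). The electrogenic member Slc4a4, known from Müller glia, was 15.9, 5.97 and 4.80 CPM in KO pups and 2.70, 6.15 and 7.04 CPM in Ctrl pups and did not pass (log2 fold change 0.75, edgeR adjusted p = 0.408). Its highest and lowest levels were in KO 1 and Ctrl 1.

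Beside the falls in carriers that neurons make, the 15 markers of bipolar, amacrine and horizontal cells averaged 3.07, 3.21 and 3.71 log2 CPM in KO libraries and 3.99, 4.05 and 4.18 in Ctrl libraries. Of 13 tested, 4 fell, where 4.44% of all genes fell, and Gad1, Lhx1 and Calb1 were at 0 in some library. The summed level of the 15 was 926 to 1722 CPM in KO libraries and 2883 to 3242 CPM in Ctrl libraries. Ganglion cell markers went the other way, at 2.77, 3.53 and 3.09 log2 CPM in KO libraries and 1.73, 2.04 and 2.06 in Ctrl libraries. The part of any of these neurons in the falls was not tested.

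Metal carriers (families 11, 30, 31, 39, 40 and 41) had 1 rise and 1 fall among 27 tested, both in zinc importers of the ZIP family. That is 3.7% in each direction, where 5.85% of all genes rose and 4.44% fell. The middle log2 fold change was 0.28. Slc39a1, or ZIP1 (chromosome 3, 90248190 to 90253613), was 249, 179 and 213 CPM in KO pups and 64.4, 109 and 94.2 CPM in Ctrl pups (log2 fold change 1.26, SE 0.279, edgeR adjusted p = 0.0325). Slc39a6, or ZIP6, on chromosome 18, was 39.9, 26.5 and 28.8 CPM in KO pups and 65.1, 66.0 and 66.2 CPM in Ctrl pups (log2 fold change −1.05, SE 0.249, edgeR adjusted p = 0.0384). The groups were apart for both genes, in opposite directions, and their selection by this difference largely fixed that separation in advance. The iron exporter ferroportin, Slc40a1, was 408, 260 and 158 CPM in KO pups and 64.7, 176 and 216 CPM in Ctrl pups, and the zinc exporter Slc30a1 had a log2 fold change of 1.52, with edgeR adjusted p = 0.277 and 0.160 for these genes. KO 1 held the highest level of each, 37.9 CPM for Slc30a1 against 9.67 CPM or less in the other 5 libraries, and without KO 1 the Slc30a1 log2 fold change was 0.48.

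Carriers of vitamins, nucleosides and choline (families 19, 23, 28, 29, 44, 46 and 52) had a middle log2 fold change of 0.44. Among 20 tested there was 1 rise, or 5%, where 5.85% of all genes rose. It was Slc29a1, or ENT1, through which adenosine crosses the membranes of endothelium and many other cells (chromosome 17, 45585200 to 45599618), at 399, 567 and 386 CPM in KO pups and 165, 232 and 232 CPM in Ctrl pups. The means were 451 ± 101 CPM in KO pups and 210 ± 38.5 CPM in Ctrl pups (SD, n = 3 each; log2 fold change 1.10, SE 0.271, edgeR adjusted p = 0.0420). The riboflavin carrier Slc52a2 was 48.2, 83.7 and 71.8 CPM in KO pups and 35.98, 33.3 and 32.8 CPM in Ctrl pups and lay just outside the threshold (log2 fold change 0.996, edgeR adjusted p = 0.0533).

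Each of the groups for carboxylates and peptides, for organic ions and bile acids, and for the remaining families gave 1 rise, among 19, 17 and 6 tested. These are 5.26%, 5.88% and 16.7%, where 5.85% of all genes rose. Slc16a11, of the monocarboxylate carrier family, was 5.37, 8.52 and 5.79 CPM in KO pups and 1.09, 1.16 and 0.717 CPM in Ctrl pups, 6.56-fold higher in KO pups (log2 fold change 2.71, SE 0.446, edgeR adjusted p = 0.0219), from 11 to 214 counts in a library. Slc22a27, of the organic anion carriers, was 20.1, 16.4 and 16.1 CPM in KO pups and 7.28, 5.90 and 6.78 CPM in Ctrl pups (log2 fold change 1.398, SE 0.295, edgeR adjusted p = 0.0300). It has near-identical neighbours on chromosome 19, so its reads may be shared with them. Slc66a2, a PQ-loop protein, was 173, 274 and 247 CPM in KO pups and 69.0, 98.2 and 99.1 CPM in Ctrl pups (log2 fold change 1.38, SE 0.278, edgeR adjusted p = 0.0267).

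In the other substrate groups 0 carriers passed edgeR's test. These were 23 for sugars (where 4 had an unadjusted p below 0.05, DESeq2 called 3 and limma-voom 0), 13 for sodium-proton and sodium-calcium exchange (5, 4 and 0), 6 of family 17 and synaptic vesicles (1, 0 and 0), 6 for fatty acids and acetyl-CoA (2, 1 and 0), 5 for nucleotide sugars (2, 1 and 1) and 3 for phosphate (0, 0 and 0). The exchangers had the middle log2 fold change of −0.54. Slc8a3, a sodium-calcium exchanger, was 11.0, 7.13 and 8.23 CPM in KO pups and 30.2, 19.5 and 15.4 CPM in Ctrl pups (log2 fold change −1.31, edgeR adjusted p = 0.0559). The nucleotide sugar carrier Slc35a5 had a log2 fold change of −1.28 (edgeR adjusted p = 0.0540) and the sugar carrier Slc50a1 one of 0.88 (edgeR adjusted p = 0.0684). The groups did not overlap in these 3 genes, named for their small adjusted p, where the share over all genes was 37.9%.

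**Figure D2:**
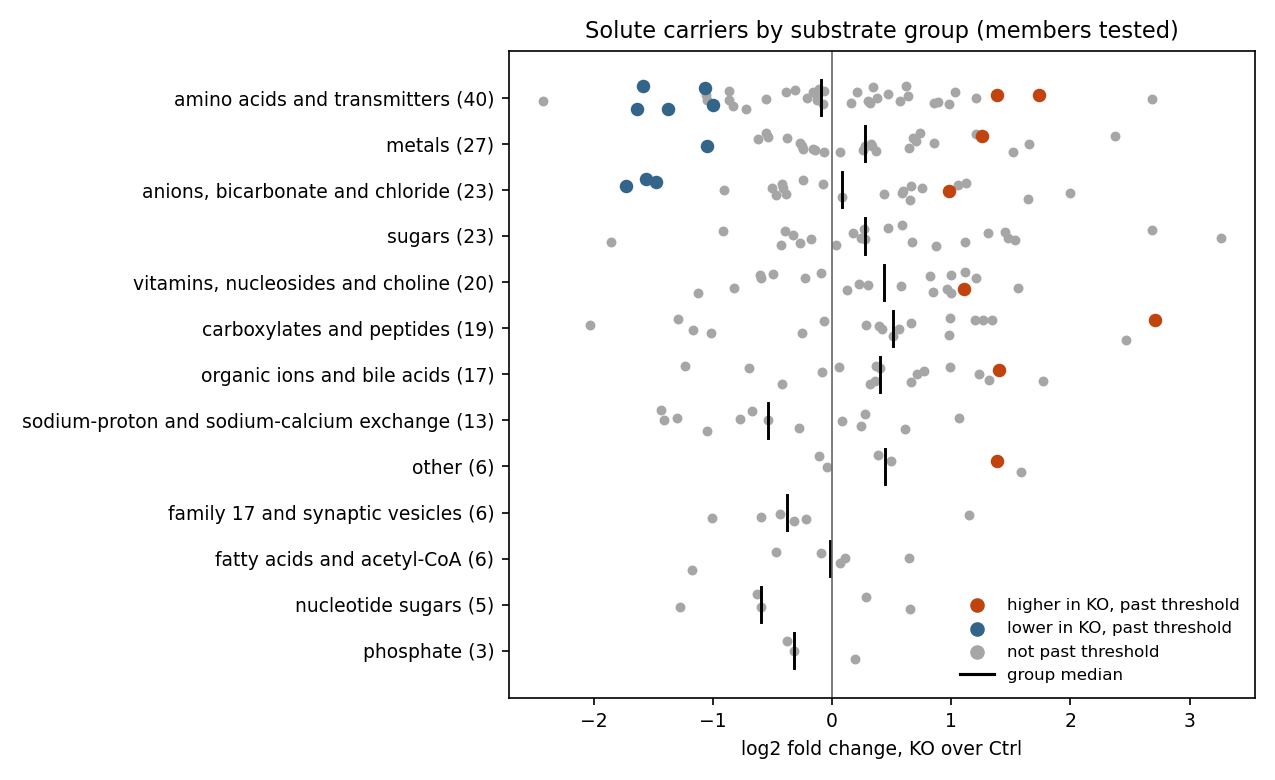
log2 fold change of KO over Ctrl for the 208 carriers tested, in rows by substrate group with the number tested, with coloured points for those past the threshold and black bars for group medians. The amino acid and anion rows hold 8 of the 9 falls, among 40 and 23 carriers tested.

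Of 30 carriers known from particular cells of the retina or blood, 25 were tested. Slc17a8, Slc32a1, Slc5a7 and Slc4a1 had 43, 7, 10 and 35 counts in all and were under the minimum, and Slc18a3 was not analysed here. All 6 synaptic carriers tested had negative estimates and 0 passed edgeR's test, nor did any have an unadjusted p below 0.05 or a call by DESeq2 or limma-voom. Slc12a5 passed with GC offsets (log2 fold change −1.02, edgeR adjusted p = 0.0453), and Slc18a2, which loads monoamines into vesicles, passed without KO 1 (log2 fold change −1.86, edgeR adjusted p = 0.0241). Slc17a7, which loads glutamate into vesicles of photoreceptors and bipolar cells, was 24.1, 34.9 and 65.0 CPM in KO pups and 70.0, 37.3 and 47.4 CPM in Ctrl pups (log2 fold change −0.32, and a log2 fold change of 0.01 without KO 1). The glycine carrier Slc6a9 was 29.2, 66.4 and 127 CPM in KO pups and 188, 104 and 104 CPM in Ctrl pups (log2 fold change −0.83, edgeR adjusted p = 0.307). In both genes KO 1 was the lowest library and Ctrl 1 the highest.

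Among carriers of photoreceptors, Slc24a1, the calcium exchanger of rod outer segments, was 10.4, 15.1 and 19.7 CPM in KO pups and 22.7, 24.1 and 30.5 CPM in Ctrl pups (log2 fold change −0.77, edgeR adjusted p = 0.152). Slc1a7, the glutamate transporter EAAT5 of photoreceptor and bipolar terminals, was 35.3, 90.4 and 179 CPM in KO pups and 261, 194 and 174 CPM in Ctrl pups (log2 fold change −1.05, edgeR adjusted p = 0.211, and a log2 fold change of −0.58 without KO 1). The summed photoreceptor markers were 4745, 9876 and 23144 CPM in KO libraries and 34206, 19113 and 22099 CPM in Ctrl libraries. The summed markers and Slc1a7 were lowest in KO 1 and highest in Ctrl 1, while Slc24a1 was lowest in KO 1 and highest in Ctrl 3. The part of photoreceptor RNA in these values was not tested. The cone exchanger Slc24a2 did not pass (log2 fold change 0.24, edgeR adjusted p = 0.655).

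**Figure D3:**
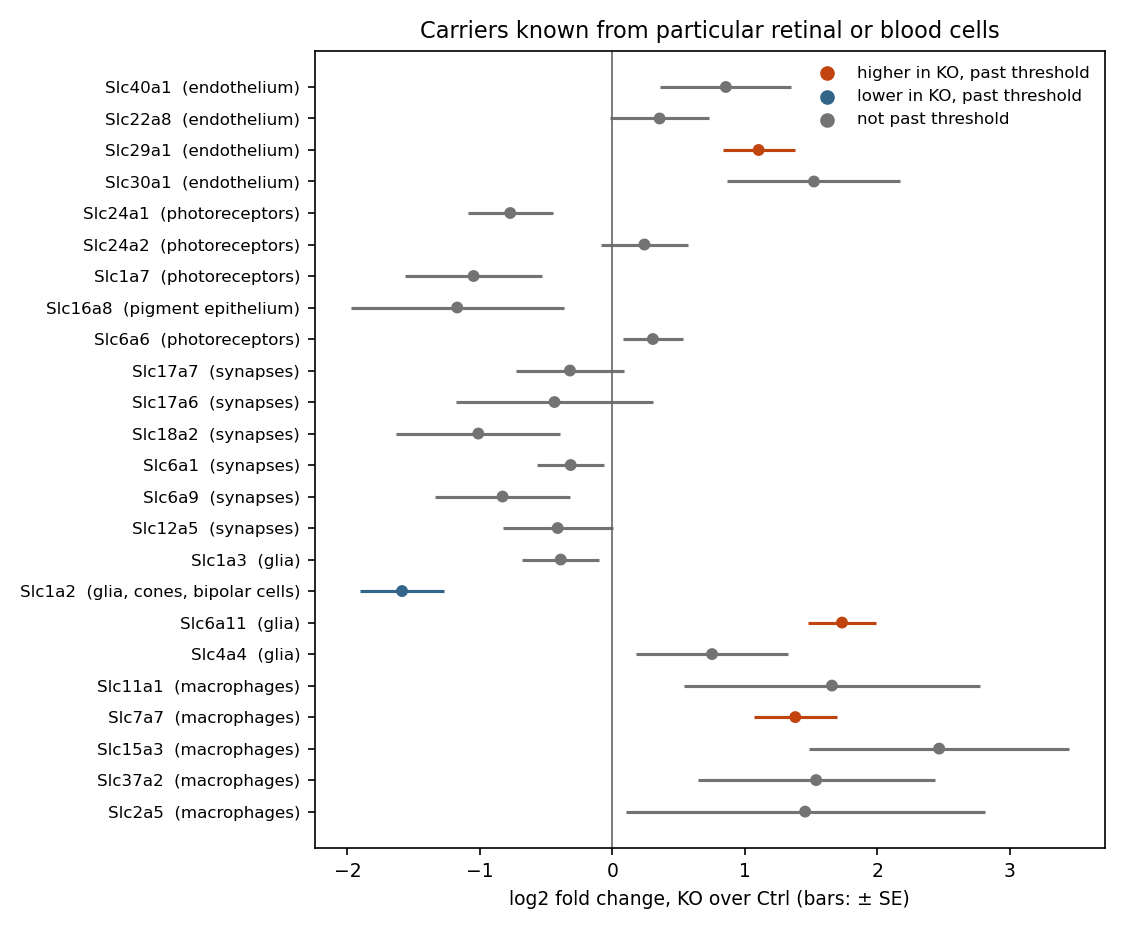
The 24 carriers shown of those known from particular cells, named with those cells, by log2 fold change (KO over Ctrl) with bars for the SE. Slc6a11, Slc7a7 and Slc29a1 rose, Slc1a2 fell, and the other 20 did not pass the threshold.

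Of the 5 carriers known from endothelium, 1 rose, Slc29a1, where 5.85% of all genes rose. DESeq2 and limma-voom each called 1 of the 5, and 2 had an unadjusted p below 0.05. The organic anion carrier Slc22a8 was 61.2, 111 and 70.2 CPM in KO pups and 43.2, 51.6 and 94.9 CPM in Ctrl pups (log2 fold change 0.36, edgeR adjusted p = 0.548). Of the 15 endothelial markers 11 rose, against 5.85% of all genes. Their summed level was 10660 to 15108 CPM in KO libraries and 3431 to 5296 CPM in Ctrl libraries. The part of a larger endothelial share in the rise of Slc29a1 was not tested. Of the 6 barrier transporters that the inclusion rule leaves out, Slc2a1 rose with a log2 fold change of 1.34, Slc3a2 with 1.02 and Slc7a5 with 2.27. Slc7a1 (edgeR adjusted p = 0.0568), Slc38a5 (edgeR adjusted p = 0.156) and Slc16a1 (edgeR adjusted p = 0.496, groups overlapping) did not pass. The middle value over all 6 was 1.17, and 50% of them rose, against 5.85% of all genes.

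Carriers known from macrophages had 5 positive estimates, and Slc7a7 passed edgeR's test with all libraries, while the other 4 did not. DESeq2 called 2 of the 5, Slc7a7 and Slc15a3 (DESeq2 adjusted p = 0.0170), where it called 22.7% of all genes. Without KO 1 edgeR also called Slc15a3 (log2 fold change 3.07, edgeR adjusted p = 0.0195) and Slc37a2 (log2 fold change 2.14, edgeR adjusted p = 0.0367). In that fit 29.7% of all genes passed. Slc11a1, the metal carrier of phagosomes, was 2.94, 140 and 25.2 CPM in KO pups and 21.2, 25.9 and 6.26 CPM in Ctrl pups (log2 fold change 1.66, SE 1.11, edgeR adjusted p = 0.348). The peptide and histidine carrier Slc15a3 was 3.18, 57.3 and 9.84 CPM in KO pups and 3.66, 6.85 and 2.15 CPM in Ctrl pups (log2 fold change 2.47, edgeR adjusted p = 0.135). Slc37a2, a sugar phosphate carrier of macrophages, was 2.74, 48.7 and 11.0 CPM in KO pups and 6.29, 10.9 and 4.30 CPM in Ctrl pups (log2 fold change 1.54, edgeR adjusted p = 0.280). KO 2 held the highest level of each, and the remaining libraries overlapped between groups.

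Without KO 2 the log2 fold change was −0.30 for Slc11a1, 0.66 for Slc15a3, −0.02 for Slc37a2 and −0.83 for Slc2a5, the fructose carrier of microglia, whose levels were 0.0392, 15.1 and 2.23 CPM in KO pups and 2.05, 3.55 and 0.652 CPM in Ctrl pups. The 14 microglia and macrophage markers summed to 283, 13865 and 2731 CPM in KO libraries and 1413, 1803 and 286 CPM in Ctrl libraries, and 0 of them passed edgeR's test, had an unadjusted p below 0.05 or were called by DESeq2 or limma-voom. For Slc7a7, KO 1, the library with the fewest marker counts among KO libraries, was above every Ctrl library. The call of Slc7a7 in these same libraries largely fixed this in advance. Without KO 2 the log2 fold change of Slc7a7 was 1.14 and it did not pass (edgeR adjusted p = 0.115). The part of macrophages in the rise of Slc7a7 was not tested.

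**Figure D4:**
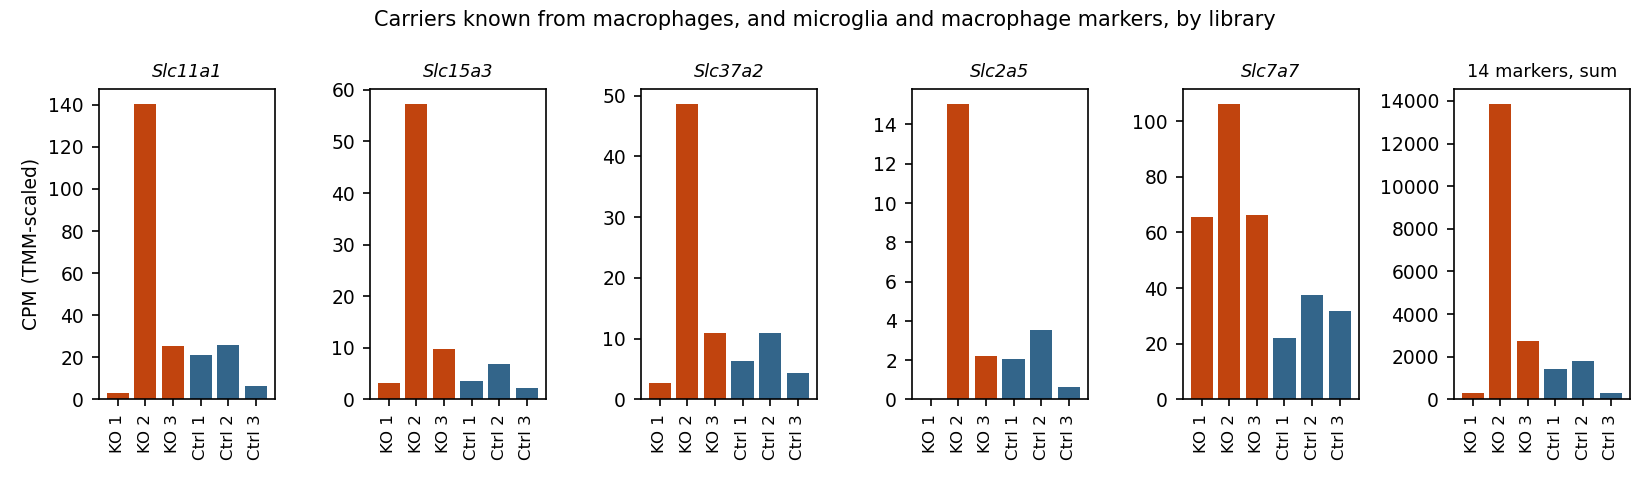
Level in each library, in TMM-scaled CPM from 0 on separate scales, of 5 carriers known from macrophages and of the sum of 14 microglia and macrophage markers. KO 2 is highest in each panel, and Slc7a7, called in these same libraries, is above every Ctrl library in all 3 KO libraries.

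For the glial carriers the directions differed. Slc6a11 rose and Slc1a2 fell, while Slc1a3, the glutamate transporter GLAST of Müller glia, was 301, 253 and 172 CPM in KO pups and 258, 306 and 388 CPM in Ctrl pups (log2 fold change −0.39, SE 0.291, edgeR adjusted p = 0.398). Of the 12 markers of Müller glia and astrocytes 4 rose, where 5.85% of all genes rose. The 12 averaged 6.04, 7.02 and 6.82 log2 CPM in KO libraries and 5.80, 5.95 and 6.28 in Ctrl libraries, with Aqp4 at 0 in some library. Their summed level was 2895, 17619 and 6543 CPM in KO libraries and 4223, 3021 and 2706 CPM in Ctrl libraries. The part of glial cells in the rise of Slc6a11 was not tested.

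The pump, chaperones and regulators on which carriers depend were counted from a separate list of 25 genes. Of these 5 rose and 1 fell, 24% against 10.3% of all genes, with a middle log2 fold change of 0.75. Those that rose included basigin, Bsg, the chaperone of monocarboxylate carriers, at 2301, 3241 and 3077 CPM in KO pups and 1055, 1019 and 1504 CPM in Ctrl pups (log2 fold change 1.27), the pump regulators Fxyd5 (1.48) and Fxyd6 (1.396) and the scaffold Slc9a3r2 (1.65). The pump subunit Atp1b2, abundant in photoreceptors and glia, fell (−1.55), at 317, 534 and 893 CPM in KO pups and 2197, 1435 and 1489 CPM in Ctrl pups. The kinases that set chloride cotransport, Wnk1, Wnk2, Wnk3, Wnk4, Stk39 and Oxsr1, did not pass.

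Base composition moved with the direction of change. The carriers that rose had a middle transcript GC content of 53.9% (7 with a value, 41.6% to 62.3%), those that fell one of 45.9% (9, 41.6% to 50.1%), and all carriers tested one of 52%. Across the 205 carriers with a value, Spearman's rho between GC content and log2 fold change was 0.355, and across 15803 genes it was 0.394. These are descriptions across genes of the same 6 libraries, and genes are not independent replicates. With an offset for GC content in each library, rho over the carriers was −0.014, 19 carriers passed (7 higher and 12 lower), and 11 of the 17 were among them, where 13% of all genes passed.

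**Figure D5:**
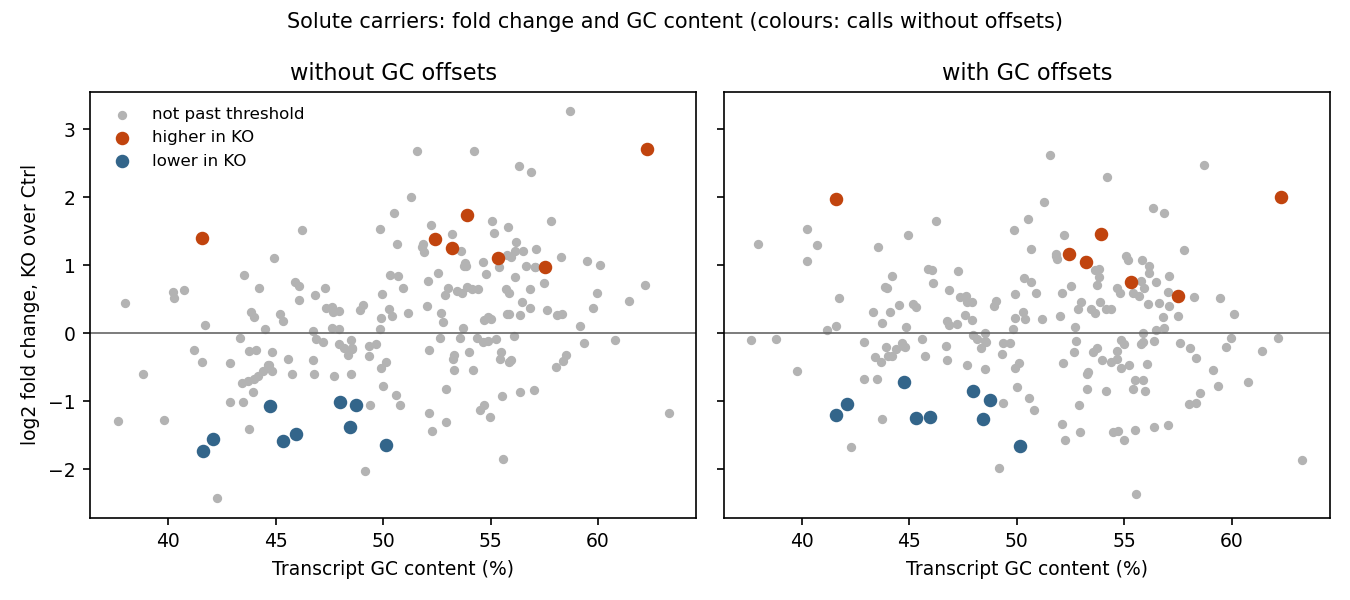
log2 fold change of KO over Ctrl against transcript GC content for the 205 carriers with a value, without and with GC offsets, coloured by the call without offsets. Without offsets the carriers that fell lie at 50.1% or below and 6 of the 7 that rose lie above 52%.

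The 6 calls lost with GC offsets were Slc39a1 (log2 fold change 1.05), Slc29a1 (0.75), Slc12a4 (0.55), Slc38a9 (−0.72), Slc1a1 (−0.85) and Slc4a10 (−1.04). Each of these was smaller in size than without the offsets and had the same sign. Slc22a27, the riser of lowest GC content at 41.6%, had a larger estimate with the offsets (1.98, against 1.398 without). Among the partners and regulators, Bsg (0.78, edgeR adjusted p = 0.0881) and Slc9a3r2 (0.91, edgeR adjusted p = 0.213) did not pass with the offsets. Fxyd5, Fxyd6 and Atp1b2 still passed. The carriers that fell also had longer genomic spans, with a median of 78794 bases, against 30002 bases for those that rose and 31529 bases over all carriers tested. The 17 lie on 10 chromosomes, and 4 of them overlap another gene of the table.

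The authors' deposited table, which used DESeq2 with an entry for each transcript, called 29 of the 209 carriers for which it gives an adjusted p as higher in KO pups and 14 as lower, at the same threshold, where it called 21.8% of all genes. All 17 carriers called here were called in the authors' deposited table with the same sign. That table was made from these same libraries, so this was largely fixed in advance and is no separate support.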

How the data were processed

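Polyadenylated RNA of CD31-sorted retinal cells was amplified as full-length cDNA and sequenced as single reads of 50 bases, per the labels' protocols. Trimmomatic 0.36, STAR, deepTools, edgeR, DESeq2 and the mm10 build are listed, with no roles, in the submitters' processing notes. The tool that made the counts is not given in the sources used here. A deposited table of 34035 transcript entries holds raw counts. The authors also deposited a signal (the counts divided by 1 size factor per library), RPKM values, a length, and their own log2 fold changes with a score (standard error and Wald statistic) and p-values. The deposited signal was not tested, and RPKM was not used because the length is the genomic span (median 8.53 times the transcript length among the carriers). The Ctrl 3 count column has an unlike name and was taken as Ctrl 3 because the other Ctrl columns carry names of replicates 1 and 2.

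The longest entry per symbol was kept, with ties by count sum. The deposited counts were tested with edgeR 4.0.16 in R 4.3.3 (quasi-likelihood test, TMM, filterByExpr, Benjamini-Hochberg adjustment, two-sided threshold 0.05). DESeq2 1.42.0 and limma 3.58.1 were alternatives. SE is the log2 fold change divided by the square root of F, and CPM is TMM-scaled. Marker means are log2 CPM with a prior count of 2. Chromosomes are from RefSeq GRCm38.p6, transcript GC content from GENCODE M21 (207 of 210 carriers), and 45 carriers overlap another gene. The preparation does not mark strand, so reads of overlapping genes cannot be told apart. The fits were tested on simulated data with larger changes than most called here and no outlying library. That test does not show how firm these calls are. Each library is a different pup, so p-values measure the spread between pups.

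The carriers and lists were chosen with earlier results of these data known. Genes were named if called with a mean of at least 5 CPM and no overlap between groups (up to 12 per direction), if among the 2 smallest adjusted p of a substrate group, if known from particular cells, or if near the count minimum. The pump, chaperone, regulator and barrier genes are a separate list, and Slc24a5, Slc2a6 and Slc19a1 were named after their values were seen. A few genes counted in the totals are not reported here by name. Precision is limited by 3 pups per group.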

Additional observations from a re-analysis of the deposited data

How the results depend on the processing

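Leaving out 1 pup at a time gave 0 to 4927 genes past the threshold (1668 with all), 0 to 56 carriers (17), 0 to 34 higher (8), 0 to 22 lower (9) and calls in 0 to 12 substrate groups (7). DESeq2 called 3536 genes and 41 carriers, 26 higher and 15 lower, in 11 groups. The replicate numbers did not pair the pups (correlations of same-numbered deviations −0.394, 0.073 and −0.264). With the replicate number as a block 1 gene and 0 carriers passed (0 higher, 0 lower, 0 groups), with 36 carriers at an unadjusted p below 0.05, and with the block and GC offsets 2 genes and 0 carriers passed, with 49. DESeq2 size factors, no filter, limma-voom, the entry with most counts and GC offsets gave 15 to 19 carriers. GC offsets moved the share of higher calls over all genes to 44.4%, from 56.8%. In none of the 14 alternatives did any of the 17 carriers change sign, but they were selected in these same libraries, so this is no separate support.

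With 1 pup left out the sign turned for 60 of the 208 carriers tested and for 0 of the 17. The 17 were selected by their difference between groups in these same libraries. That 0 was thus largely fixed in advance and does not measure how firm the calls are. Of the named carriers in which it turned, log2 fold changes ranged from −0.297 (without KO 2) to 2.30 for Slc11a1, −0.744 to 0.00037 (without KO 1) for Slc12a5, −2.03 to 0.0779 (without Ctrl 1) for Slc16a8, −0.751 to 0.0146 (without KO 1) for Slc17a7, −0.832 (without KO 2) to 2.12 for Slc2a5, −0.01998 (without KO 2) to 2.14 for Slc37a2 and −0.417 (without KO 1) to 1.53 for Slc6a16. The microglia marker difference ranged from −0.551 (without KO 2) to 2.50. With limma-voom the value was −0.577 for Slc2a5. Rnf20 ranged from −0.749 to −0.580 and passed without KO 1 (−0.713). The causes were not tested. With 3 pups per group, folds of low carriers have wide errors.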

Other observations

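A few carriers differed more within groups than between them. Slc24a5, a potassium-dependent sodium-calcium exchanger known from pigment cells, was 133, 10.8 and 10.6 CPM in KO pups and 33.8, 192 and 185 CPM in Ctrl pups (log2 fold change −1.41, SE 1.05, edgeR adjusted p = 0.396). It overlaps Myef2, so its counts are uncertain, and without KO 1 its log2 fold change was −3.61 (edgeR adjusted p = 0.0113). Slc19a1, the reduced folate carrier, was 32.9, 77.9 and 127 CPM in KO pups and 311, 102 and 106 CPM in Ctrl pups (log2 fold change −1.12, edgeR adjusted p = 0.232, and a log2 fold change of −0.39 without Ctrl 1). Slc2a6, a hexose carrier, had the largest estimate of the carriers tested (log2 fold change 3.26, SE 1.46, edgeR adjusted p = 0.172) and 47.3 CPM in KO 2, against 3.63 CPM or less in the other 5 libraries. Without KO 2 its log2 fold change was 0.20, and without KO 1 it was 3.92 (edgeR adjusted p = 0.0223).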
